A study of Mus musculus with 12 samples.

Results

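The genes described are the 82 cytosolic ribosomal protein genes of mouse liver, 49 of the large (60S) and 33 of the small (40S) subunit, out of 22618 genes in the count table. They were chosen by symbol (Rpl or Rps followed by a number, with Rplp0, Rplp1, Rplp2 and Rpsa), with symbols of pseudogenes and of the Rps6k kinases left out. Of 85 genes matching the symbols, 3 fell under the minimum mean of 5 CPM (a gene's share of its library's counts, on a scale common to all libraries) and were set aside: Rpl3l, Rpl39l and Rps12l1, each close to 0. The lowest gene kept, Rps4y2, had a mean of 13.7 CPM of the library total. Of the 82 genes, 81 are annotated as protein-coding. Rps4y2, which GENCODE M21 calls Rps4l, is annotated as a transcribed processed pseudogene. The row named Rpl24 carries an identifier (ENSMUSG00000022601) that this annotation gives to the neighbouring gene Zbtb11, so its values are uncertain. For 77 genes the symbol is that of the main copy of a ribosomal protein, and the other 5 (Rpl7l1, Rpl22l1, Rps27l, Rpl36al and Rps4y2) are paralogs, second copies of such genes.

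Liver RNA came from male C57BL/6j mice, aged 12 to 16 weeks, in which both cryptochrome genes (Cry1 and Cry2) were knocked out, so that the circadian clock lacks its main repressors. All animals were fed at night and carried a conventional gut flora. Livers were taken at zeitgeber time (ZT) 2, 6, 10, 14, 18 and 22, with 2 libraries at each time and 12 in all. Night means ZT14, ZT18 and ZT22, taking ZT12 as the conventional start of darkness, and day means the other 3 times. Every group shares the genotype and the feeding schedule, and wild-type livers were not analysed here, so the mutant is compared only with itself at other hours. Whether the 2 libraries of a time are 2 animals is not stated in the labels. The p-values below reflect no more than how far libraries differ, which may be technical. For any difference among 6 times and for night minus day in edgeR, that is the spread between libraries of a time. The 24 h and 12 h tests also count departures of the times from the fitted curve as spread. Permutation tests use the spread over all 12 libraries.

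Ribosomal proteins assemble with ribosomal RNA into the 2 subunits that translate mRNA, with most of the core proteins present in equal number. Mammalian ribosomal protein mRNAs typically begin with a C followed by a run of pyrimidines, the 5′ terminal oligopyrimidine (TOP) motif, through which mTORC1 and Larp1 adjust their translation to nutrients. In liver, feeding is known to raise translation of these mRNAs with less change in their amount. The counts measured here give RNA amount and say nothing of translation.

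The start sites show the features for which these genes are known. Of 73 RefSeq promoters (GRCm38.p6, 250 bases before to 50 after the start) found for 61 of the genes, 13 (17.8%) have C at the annotated start followed by at least 4 more C or T, against 2.51% of all 32851 promoters of that length. Printed here are 30-base windows, 15 bases before the start and 15 from it on, for 5 genes with the motif and different protein roles, and for Rpl7l1, the paralog to which the results below return. The capitals mark the C or T run that begins at the start site. Rpl35 and Rpl15 are 60S proteins, Rps6 is the 40S protein that S6 kinases phosphorylate, and Rps18 and Rps27 are further 40S proteins. The windows are at chr2:39005117-39005146, chr14:18270972-18271001, chr4:86857353-86857382, chr17:33955651-33955680, chr3:90213634-90213663 and chr17:46782642-46782671, in the order printed and all on the minus strand, each written 5′ to 3′.
Rpl35: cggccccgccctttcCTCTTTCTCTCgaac
Rpl15: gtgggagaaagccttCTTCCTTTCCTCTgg
Rps6: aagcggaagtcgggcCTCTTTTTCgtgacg
Rps18: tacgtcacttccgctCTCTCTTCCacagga
Rps27: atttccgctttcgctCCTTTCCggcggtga
Rpl7l1: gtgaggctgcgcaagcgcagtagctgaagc
The Rpl7l1 window has no capitals because fewer than 4 C or T follow the base at its annotated start. Many annotated starts lie a few bases from the pyrimidines, and 43.8% of the genes' promoters have a run of at least 6 C or T touching the 5 bases on either side of the start, against 21.02% of all promoters. Other motifs, searched on both strands of the 300 bases, were the ETS core CCGGAA (49.3% against 14.9%), the GC box GGGCGG (63.0% against 35.7%), the YY1 motif GCCATNTTG (11.0% against 2.51%), the E-box CACGTG (12.3% against 7.15%) and TATAAA (9.59% against 13.6%). These matches describe letters in the windows, not bound sites.

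Library totals were 34715506 to 46074052 counts, and the 82 genes took 1.01% to 1.39% of them. Hepatocyte markers dominated every library, with sums of 74369 to 108040 CPM. Reads were still counted at Cry1 (night 9.01 ± 1.68 CPM, day 8.42 ± 2.75; SD, n = 6 each) and Cry2 (night 15.3 ± 2.05, day 20.1 ± 1.81), and gene totals do not show from which exons, so they do not check the genotype. Close copies matter here: a median of 36.8% of the 100-base windows of a gene's main transcript also occurs in another annotated gene, over 50% in 30 of the 82 genes and none in 6. Reads from those stretches cannot be placed with certainty. In bulk tissue, fewer cells of a type and less RNA per cell cannot be told apart.

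Messenger RNA of the ribosomal proteins was nearly level over the day. Of the 82 genes, all of which passed the filter on low counts, 1 passed the test for a 24 h rhythm, against 12% of 17142 tested genes (edgeR quasi-likelihood test, Benjamini-Hochberg adjusted p under 0.05). Without adjustment, 3 of the 82 had p under 0.05, against 31.5% of all genes. The test of any difference among the 6 times called 1 (background 4.82%), and the contrast of night minus day called 1 (background 9.7%), higher at night (background 4.8%), with 0 lower (background 4.89%). A 12 h component was called by edgeR in 0 of the 82, with 1 at an unadjusted p under 0.05, and the background was 0%, with 7.92% of all genes at an unadjusted p under 0.05. DESeq2 also called 0 of the 82 for 12 h, and 35 genes in all. The same gene, Rpl7l1, accounts for each of the 3 calls, and without the 5 paralogs the counts are 0.

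The fitted ranges bound how much these mRNAs could vary as a 24 h cosine. The peak-to-trough range had a median of 1.13-fold over the 82 genes, 1.31-fold over all tested genes and 1.22-fold over the 7031 genes at least as abundant as the lowest of the 82. The upper 95% limit was under 1.5-fold in 77 of the 82 (93.9%, against 30.2% of all genes and 54.3% of those 7031). Among the 77 main copies the largest range was 1.28-fold (95% interval 1.02 to 1.62), in Rps27. The smallest was 1.01-fold (upper limit 1.14), in Rps2. A lower limit above 1 is not a call, and Rps27 did not pass the 24 h test (edgeR adjusted p = 0.183). In 57 of the 82 the variance between times was below that between libraries of the same time, which held for 28.4% of all genes and 21.7% of the 7031.

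**Figure D1:**
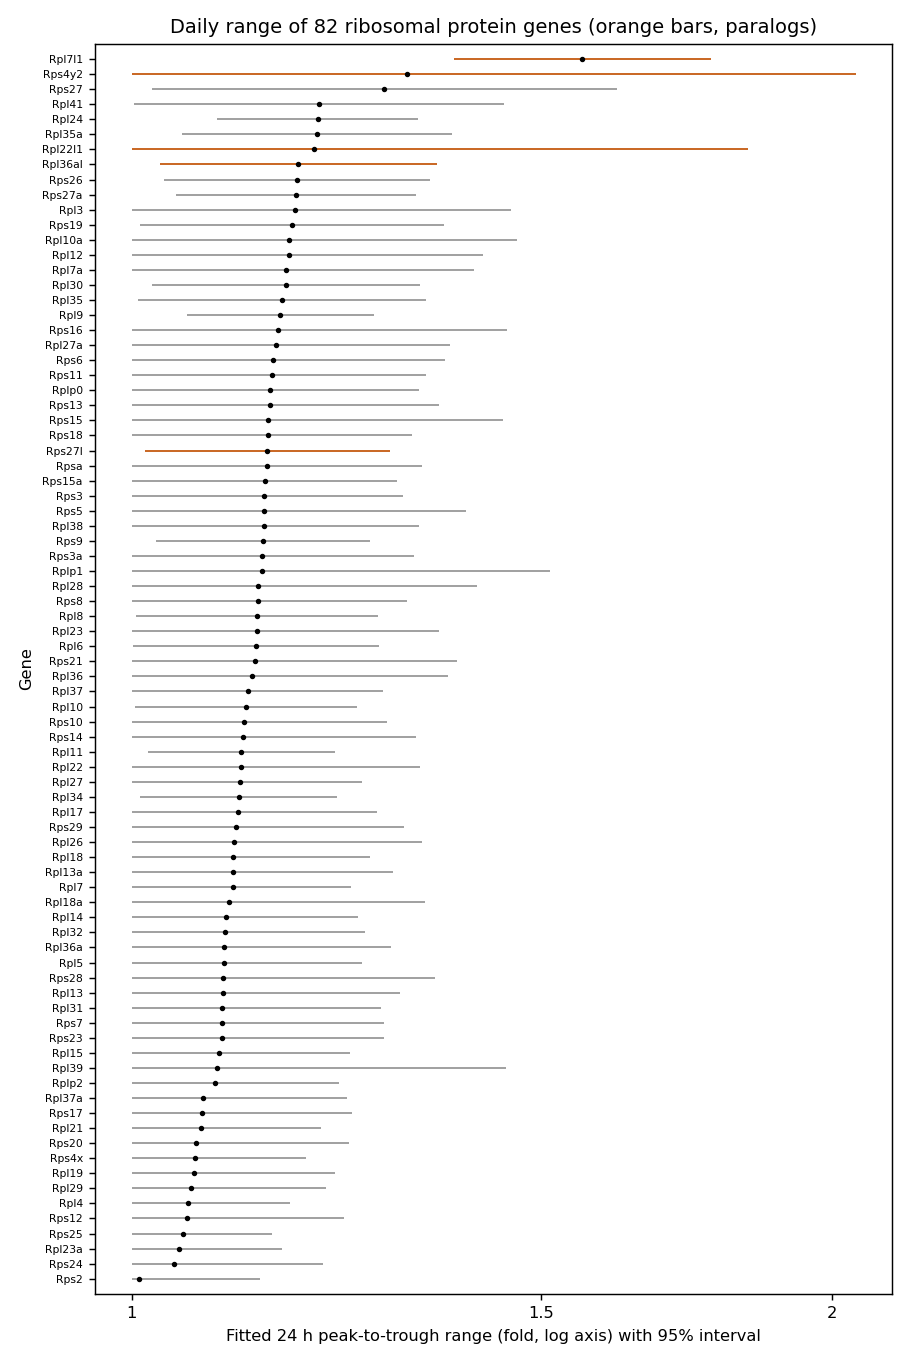
Fitted 24 h peak-to-trough range (fold, log axis) of each of the 82 genes; points are estimates and bars the 95% interval, with paralogs in orange. Rpl7l1 stands at 1.56-fold, and the main copies lie between 1.01-fold (Rps2) and 1.28-fold (Rps27).

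Rpl7l1 was the exception. It encodes a protein related to Rpl7, and its yeast relative Rlp7 is an assembly factor of the large subunit. The gene (ENSMUSG00000063888) lies at chr17:46773907-46782672 on the minus strand of GRCm38, and 1.68% of its transcript's 100-base windows occur elsewhere. By day its level was 54.4 and 46.1 CPM at ZT02, 53.3 and 48.3 at ZT06, and 64.1 and 63.1 at ZT10. By night it was 82.4 and 77.7 CPM at ZT14, then 69.3 and 66.7 at ZT18, then 60.8 and 63.1 at ZT22. Both ZT14 libraries were the highest and the 4 libraries of ZT02 and ZT06 the lowest, while ZT10 reached the level of ZT22, so that night and day overlap. Night averaged 70.0 ± 8.43 CPM and day 54.9 ± 7.44 (SD, n = 6 each), higher at night by 0.35 ± 0.062 on the log2 scale (SE; adjusted p = 0.00843 in edgeR). The 24 h fit gave a range of 1.56-fold (95% interval 1.38 to 1.77) with its peak at ZT 15.3 (edgeR adjusted p = 0.00456), and the test over 6 times gave an adjusted p of 0.0244 (edgeR). The 24 h and night calls held in each of 21 alternatives, with adjusted p up to 0.0303 and 0.0386. The call over 6 times was lost without ZT14 replicate 1 (adjusted p = 0.0781), ZT14 replicate 2 (0.0544), ZT18 replicate 1 (0.0791), ZT18 replicate 2 (0.0737) or ZT22 replicate 1 (0.055), and without ZT02 replicate 2 and ZT06 replicate 1 together (0.0569).

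Rpl7, the main copy and a 60S protein, did not show this pattern. Its lowest, median and highest levels were 235, 247 and 282 CPM at night and 233, 249 and 286 by day, so the groups cover the same span. The night minus day difference was -0.0037 on the log2 scale (edgeR adjusted p = 0.98), and the fitted range 1.11-fold (upper limit 1.24). The ratio of Rpl7l1 to Rpl7 was higher at night by 0.36 on the log2 scale (-1.85 ± 0.15 against -2.20 ± 0.16, SD, n = 6 each). Every night ratio lay above every day ratio, but only just, with the lowest night ratio at -2.009 and the highest day ratio at -2.014. The share of other gene pairs with such a separation was not determined. With 1 library left out, the difference stayed between 0.31 and 0.40. The ratio was taken up after the values of Rpl7l1 had been seen and mostly restates its night difference of 0.35, so no test result is given for it. The coding sequences of Rpl7 and Rpl7l1 are 62.6% identical over their aligned bases.

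The other 4 paralogs passed none of the tests. Rpl22l1, a paralog of the RNA-binding 60S protein Rpl22, had 17.2, 22.5 and 23.8 CPM (lowest, median, highest) at night and 12.8, 18.4 and 26.0 by day, with the day libraries spanning the night ones. Its ratio to Rpl22 differed by 0.34 on the log2 scale (exact two-sided permutation test over 12 libraries, adjusted over 5 paralog pairs, p = 0.281). This test, also used for the ratios below, shuffles single libraries and takes no account of their times or replicate numbers. The 5 pairs include Rpl7l1 with Rpl7, and all pair ratios were taken up after the values had been seen. Rps27l, a paralog of the zinc-finger 40S protein Rps27, ran from 78.0 to 90.3 CPM at night and from 81.5 to 99.6 by day, and its ratio to Rps27 differed by -0.21 (exact permutation, adjusted p = 0.289). Rpl36al lay at 67.3 to 79.7 CPM at night and 60.1 to 74.6 by day (edgeR adjusted p = 0.199), and Rpl36a at 51.4 to 68.0 CPM over all 12 libraries. The ratio of Rpl36al to Rpl36a differed by 0.10 (exact permutation, adjusted p = 0.344). Rps4y2 had 8.81 to 15.4 CPM at night and 10.9 to 22.6 by day, Rps4x had 227 to 275 CPM over all 12 libraries, and the ratio of Rps4y2 to Rps4x differed by -0.28 (exact permutation, adjusted p = 0.336). Coding identity was 70.2% for the Rpl22 pair, 76.2% for Rps27 and 87.7% for Rpl36a, so reads of Rpl36a and Rpl36al are the least safely told apart of these 3 pairs.

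**Figure D2:**
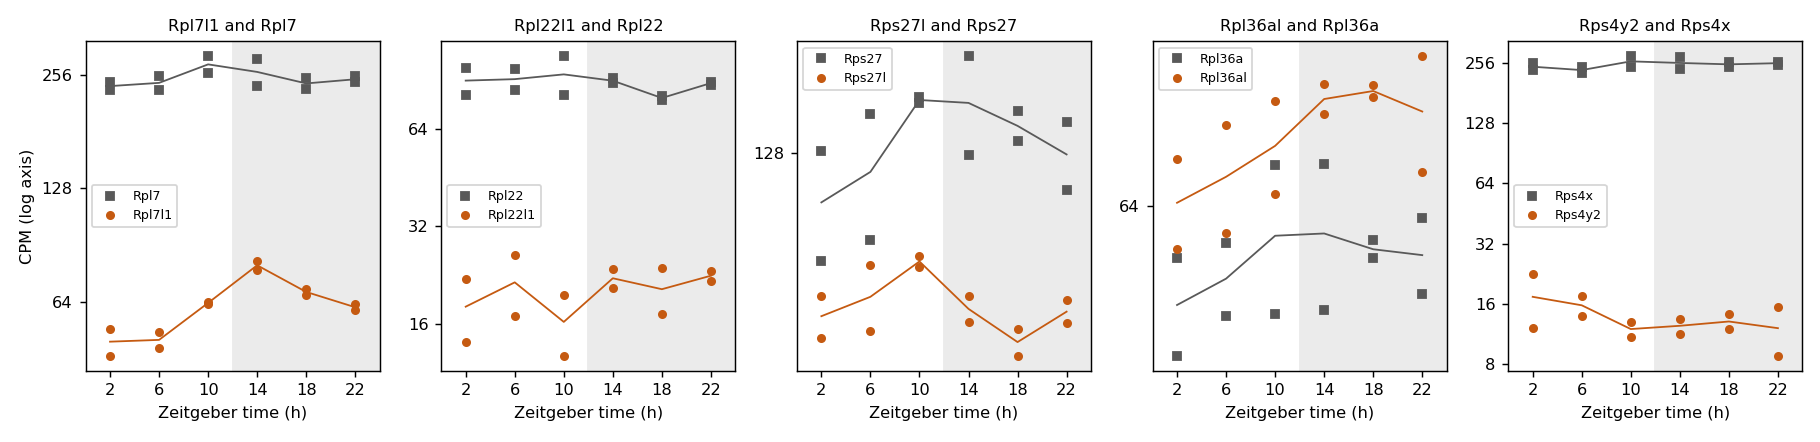
CPM (log axis, its scale differing between panels) of 5 paralogs (orange) and their main copies (grey) against zeitgeber time; points are single libraries, lines join the means of 2 libraries, and grey shading marks night. Rpl7l1 is highest in both ZT14 libraries (82.4 and 77.7 CPM), while Rpl7 covers the same span by night and by day.

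By role, no group of large-subunit proteins had a called member. The P-stalk and its base, where translation factors bind, comprise Rplp0, Rplp1, Rplp2 and Rpl12; 0 of 4 were called, with ranges of 1.09- to 1.17-fold. Rplp1 varied most between libraries, at 215, 289 and 346 CPM (lowest, median, highest) at night and 220, 251 and 307 by day. Its lowest and its highest value were both at ZT14, in replicates 2 and 1. Rpl5 and Rpl11, which carry 5S rRNA and can bind Mdm2, had ranges of 1.10- and 1.11-fold. Rpl5 stood at 169, 176 and 189 CPM at night and at 158, 170 and 213 by day, the highest being ZT10 replicate 2. The 9 listed proteins of the exit tunnel and its rim, through which the nascent chain leaves, had ranges of 1.05- to 1.16-fold with 0 called. Rpl4, which lines the tunnel, had the highest CPM of the 82, uncorrected for length, and was one of the 3 steadiest genes by SD, with 410, 423 and 484 CPM at night and 395, 413 and 450 by day. Rpl23a, at the tunnel exit, was also among these 3, at 106 to 119 CPM at night and 104 to 123 by day.

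Small-subunit proteins gave the same picture, in groups as small and against the same backgrounds. Rps2 and Rps3, at the channel where mRNA enters, had ranges of 1.01- and 1.14-fold, and Rps2 stood at 356, 380 and 422 CPM at night against 352, 384 and 404 by day. Rps15 and Rps23, which reach towards the decoding centre, were not called, and Rps15 ran from 139 to 194 CPM at night and 129 to 172 by day. Of the 4 proteins near the mRNA exit (Rps14, Rps26, Rps28 and Rpsa), 0 were called, with ranges of 1.09- to 1.18-fold. Rps26 had 95.8, 114 and 123 CPM at night and 95.2, 99.0 and 106 by day (log2 difference 0.15, edgeR adjusted p = 0.21). Rps25, which several viral internal ribosome entry sites need, was the third of the steadiest genes, at 148 to 160 CPM at night and 137 to 161 by day. The 9 listed genes that are mutated in Diamond-Blackfan anaemia, a failure of red cell production, had ranges of 1.04- to 1.20-fold with 0 called.

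Among main copies, those closest to a 24 h call in edgeR were Rpl24 (adjusted p = 0.102, with the doubt about its identifier), Rpl35a (0.138), Rps27a (0.17) and Rpl9 (0.177). Rpl35a, a 60S protein, was at 91.3 and 92.2 CPM at ZT10 and at 69.9 to 84.4 in the other 10 libraries. Both ZT10 libraries thus lie above all others, though the test over 6 times did not pass (edgeR adjusted p = 0.107). Rps27a, made as a fusion with ubiquitin, had 92.5 to 109 CPM at night and 88.9 to 116 by day, with its highest library at ZT10. Rpl9, a 60S protein, had 154 to 177 CPM at night and 141 to 175 by day. The largest night minus day difference among main copies was 0.17 on the log2 scale in Rpl12 (144, 151 and 177 CPM at night against 121, 133 and 168 by day; edgeR adjusted p = 0.256). Each of these genes has night and day values that overlap, and in 0 of the 82 did all 6 night libraries lie above all 6 day libraries (background 1.6%) or below them (2.1%).

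Small differences nevertheless leaned one way. The night minus day estimate was above 0 in 73 of the 82 genes (89%, against 51.2% of all genes), with a median of 0.058 on the log2 scale (all genes 0.0072), and 71 of the 82 had a fitted peak between ZT12 and ZT24 (86.6% against 51.3%). The 82 genes do not vary independently, so these counts weigh less than their size, and the median depended on single libraries. It was 0.011 without ZT14 replicate 1, 0.036 without ZT10 replicate 1, 0.036 without ZT22 replicate 2 and 0.099 without ZT14 replicate 2. With library totals as the only scaling it was 0.089, where the median of all genes was 0.039.

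The main copies shifted together from library to library. For each gene, log2 CPM was set against its own mean, and the median over the 77 main copies was taken in each library. That median was -0.146 and -0.017 at ZT02 (replicates 1 and 2), -0.117 and -0.022 at ZT06, and -0.015 and 0.154 at ZT10. In the night libraries it was 0.180 and -0.076 at ZT14, then 0.040 and -0.019 at ZT18, then -0.035 and 0.087 at ZT22. The same median over all tested genes stayed between -0.0050 and 0.012. The common scaling of the libraries tends to keep that median near level, so it is not an independent contrast. The SD between libraries of the same time was 0.11, which alone gives a mean of 2 libraries an SD of 0.076. The 6 time means had an SD of 0.063, within that spread. Night averaged 0.030 ± 0.094 and day -0.027 ± 0.11 (SD, n = 6 each).

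Most main copies took part in these shifts. Of the 77, 75 were above their own mean in ZT14 replicate 1, 74 in ZT10 replicate 2 and 71 in ZT22 replicate 2. Only 2 were above it in ZT02 replicate 1, 4 in ZT06 replicate 1 and 10 in ZT14 replicate 2. ZT14 replicate 1 was the highest library for 45 genes and ZT10 replicate 2 for 26, and ZT02 replicate 1 was the lowest for 36. At ZT14, replicate 1 exceeded replicate 2 in 75 of 77 genes, against 49.7% of all genes, a share that the scaling also tends to hold close to even. Both subunits moved alike, with medians of 0.183 (large) and 0.164 (small) in ZT14 replicate 1 and -0.134 and -0.166 in ZT02 replicate 1. Rps27 shows the size for a gene with a wide spread: 98.4 CPM in ZT02 replicate 1, 129 in ZT02 replicate 2, 162 in ZT14 replicate 1 and 127 in ZT14 replicate 2. Of its 100-base windows, 98.4% are shared with other annotated genes.

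**Figure D3:**
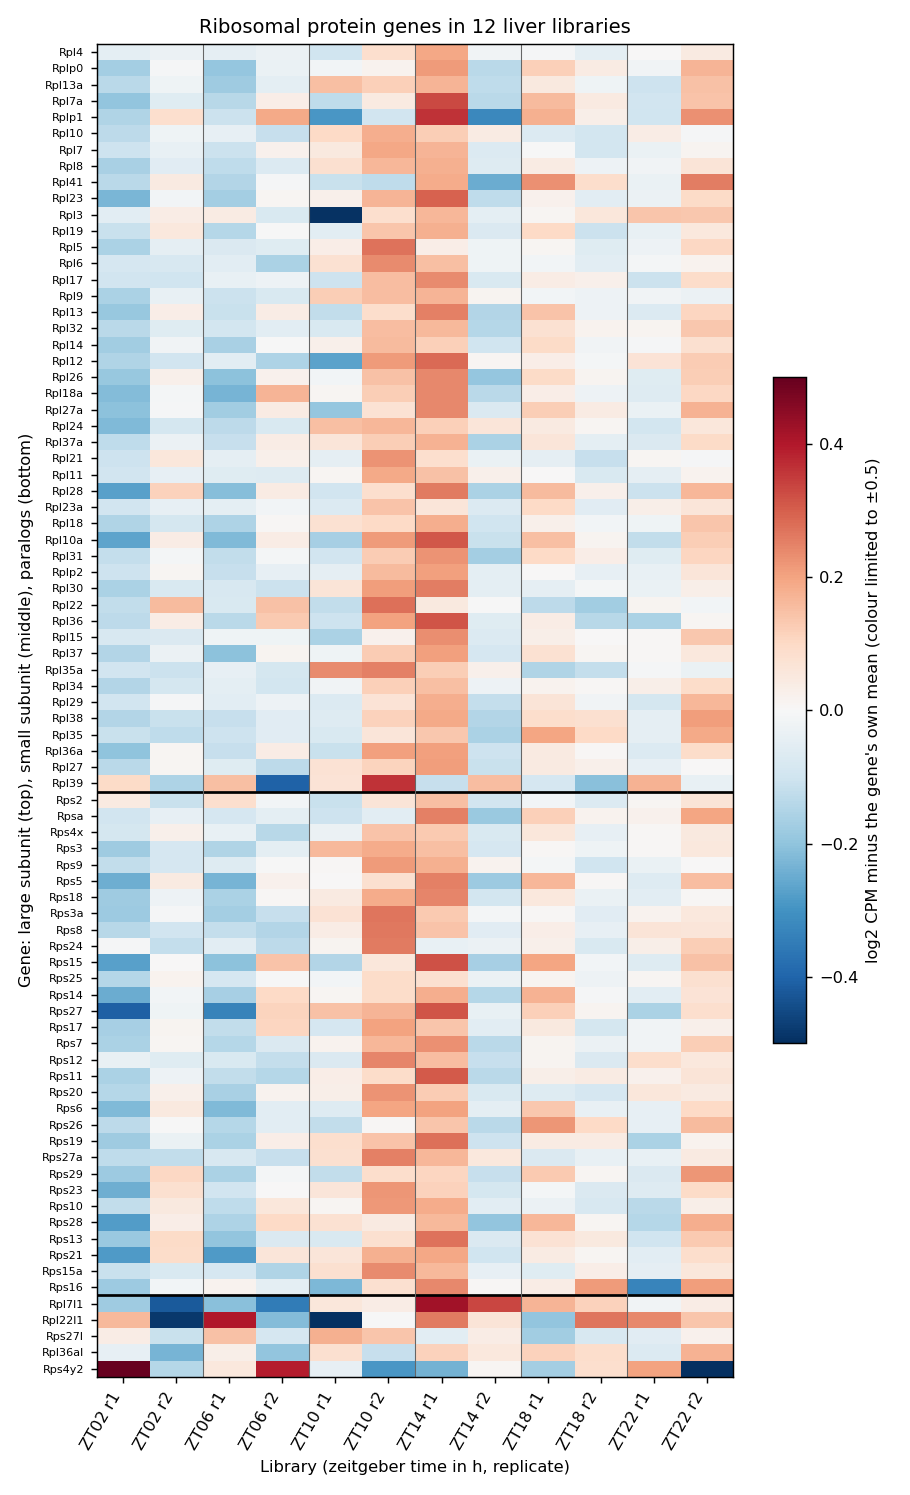
log2 CPM minus the gene's own mean (colour, limited to ±0.5) for 82 genes (vertical) in 12 libraries (horizontal), with large-subunit, small-subunit and paralog genes separated by lines. Most main copies share a colour within a column, red in ZT14 r1 and ZT10 r2 and blue in ZT02 r1. The paralog rows at the bottom follow this only in part. In ZT14 r1, Rpl7l1, Rpl22l1 and Rpl36al are also red, and Rps27l and Rps4y2 are blue.

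Library properties are given here beside these shifts. ZT02 replicate 1, the lowest, had the most counts (46074052), ZT14 replicate 1, the highest, had 36143895, and ZT10 replicate 2, the second highest, had 41205270. The 10 lymphocyte markers, of which 0 were at 0 in every library and 1 (Cd3e) in 1 library, summed to 2.52 to 9.30 CPM at night and 5.29 to 7.96 by day. Their mean log2 deviation was -1.11 and -0.68 in the ZT14 libraries. Of 7 acinar pancreas markers, 5 (Cela3b, Cpa1, Prss2, Pnlip and Ctrb1) were at 0 in at least 1 library. Only 3 acinar genes were tested (Cela1, Cela2a and Ctrb1). These 3 summed to 9.55 to 22.7 CPM at night and 6.35 to 17.4 by day. Their mean deviation was 2.56 in ZT14 replicate 2 and -0.85 in ZT14 replicate 1. Erythroid markers summed to 117 to 326 CPM at night and 119 to 377 by day, with deviations of 1.33 in ZT02 replicate 1 and -0.87 in ZT06 replicate 1, the 2 lowest libraries for ribosomal proteins. The 9 Kupffer cell markers, none of them at 0 in any library, summed to 275 to 453 CPM at night and 325 to 506 by day, with deviations of 0.48 in ZT02 replicate 1 and -0.51 in ZT14 replicate 2. The 7 endothelial markers summed to 454 to 537 CPM at night and 466 to 606 by day, with deviations of -0.14 to 0.16, the highest in ZT14 replicate 1. The 6 hepatocyte markers had deviations of -0.30 in ZT10 replicate 2, 0.13 in ZT02 replicate 1 and 0.010 in ZT14 replicate 1. The part of depth or of these cell types in the shifts was not tested.

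Ribosome biogenesis genes act in making ribosomes, and their products do not remain in the finished subunits. The list held assembly factors, RNA polymerase I transcription genes such as Polr1b and Polr1e, and Myc. Myc, which is part of the list mean, stood at 38.4 CPM in ZT22 replicate 1 and 2.47 in replicate 2. Several genes of the list had a daily rhythm. Of its 30 genes, 12 (40%) passed the 24 h test in edgeR (background 12%). At night 4 (13.3%, background 4.8%) were higher and 0 lower (background 4.89%). The median range was 1.48-fold, against 1.31-fold over all tested genes. The difference between this list and the 82 ribosomal protein genes was not tested. Nolc1, a nucleolar phosphoprotein of snoRNP assembly, was at 51.8 and 52.4 CPM at ZT14 and at 21.7 and 17.7 at ZT02, a range of 2.36-fold with its peak at ZT 14.3 (edgeR adjusted p = 0.00375). Nop16, a pre-60S factor, was at 28.4 and 28.8 CPM at ZT14 and 19.1 and 15.6 at ZT02, with a range of 1.69-fold and its peak at ZT 15.2 (edgeR adjusted p = 0.00452). The 12 called genes had fitted peaks from ZT 10.9 to ZT 16.2 with a median of ZT 13.6, beside ZT 15.3 for Rpl7l1. The mean of the list was 0.31 and 0.29 in the 2 ZT14 libraries, where the medians of the ribosomal protein main copies were 0.180 and -0.076. It was 0.010 and 0.33 at ZT10, where those medians were -0.015 and 0.154. ZT10 replicate 2 is thus the list's highest library and the second highest for the main copies. Members differ within the list, since Gnl3, a nucleolar GTPase, passed the 24 h test with a peak at ZT 10.9 and a lower estimate at night (-0.16).

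**Figure D4:**
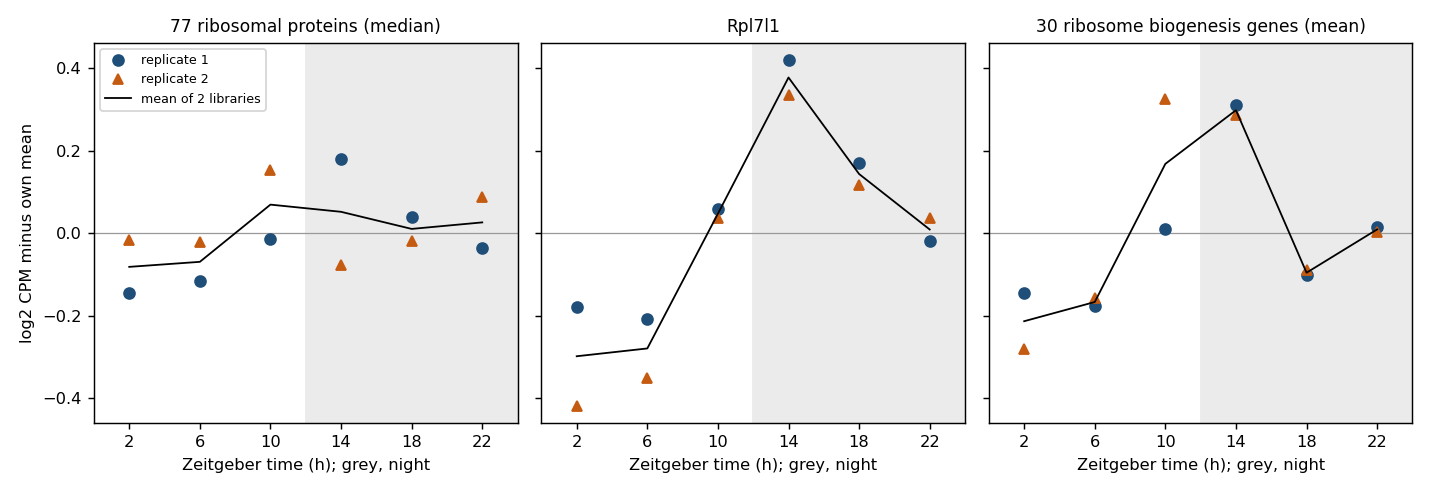
log2 CPM minus own mean against zeitgeber time for the median of 77 main copies (left), Rpl7l1 (middle) and the mean of 30 ribosome biogenesis genes (right); circles and triangles are replicates 1 and 2, the line joins the means of 2 libraries, and grey marks night. Replicates of the main copies lie apart at ZT14 (0.180 and -0.076), and those of the biogenesis genes lie apart at ZT10 (0.010 and 0.33).

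Related lists were counted in the same way, against backgrounds of 12% for the 24 h test and of 4.8% higher and 4.89% lower at night. Gnb2l1, which encodes the 40S component RACK1, and Fau, which encodes a further 40S protein, lie outside the symbol rule. Neither was called by edgeR in any of the 4 tests, and their fitted ranges were 1.14- and 1.09-fold. Of 20 other translation genes, most with TOP mRNAs, 2 (10%) passed the 24 h test, a share near the background: Eef1g (edgeR adjusted p = 0.0184) and Eif4b (0.0277). Eef1g, an elongation factor subunit, was higher at night (140 ± 4.24 against 117 ± 9.48 CPM, SD, n = 6, edgeR night minus day adjusted p = 0.0182). Eif4b, an initiation factor, was lower at night (183 ± 21.5 against 231 ± 37.5 CPM, edgeR night minus day adjusted p = 0.0475). Of 23 genes of mTORC1 signalling and TOP control, 3 (13%, also near the background) passed the 24 h test: Rps6kb1, an S6 kinase gene, and the sestrin genes Sesn1 and Sesn3. At night 0 were higher and 3 (13%) lower, namely Tsc1, Sesn2 and Sesn3. Sesn2 stood at 7.10 ± 1.76 CPM at night and 11.9 ± 2.79 by day (edgeR adjusted p = 0.0177). Mitochondrial ribosomal proteins, which form a separate ribosome, had 4 of 79 genes (5.06%) with a 24 h call, and Mrps6 had the widest range at 2.07-fold. Of 26 respiratory chain genes, 0 were called by edgeR.

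Copies of ribosomal protein genes were counted as well. Of 104 tested genes with ribosomal protein pseudogene symbols, 5 (4.81%, background 12%) passed the 24 h test, and 10 were higher (9.62%, background 4.8%) and 0 lower (background 4.89%) at night (edgeR). Rpsa-ps10, the most abundant of the called ones, had 11.4 ± 1.77 CPM at night and 8.57 ± 1.04 by day (SD, n = 6; edgeR adjusted p = 0.0341). Its parent Rpsa, the 40S protein near the mRNA exit, was at 364 ± 38.2 and 329 ± 6.33 CPM (edgeR night minus day adjusted p = 0.279). Over the 104 tested genes with pseudogene symbols the summed level was 187 to 272 CPM at night and 178 to 213 by day. These genes share sequence with their parents, so reads of the one can be counted at the other.

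Per kilobase of the main annotated transcript, levels of the 82 genes ran from 13.9 to 545 CPM per kb. Rplp1 was highest at 545, followed by Rpl41 (388), Rps27 (382), Rps2 (382) and Rps18 (347). At the low end were Rps15a (13.9), Rps4y2 (17.5), Rpl7l1 (24.0), Rpl24 (26.8) and Rps20 (33.0). The place of Rpl24 is uncertain, because its length (4920 bases) belongs to the identifier that the annotation gives to Zbtb11. Before division by length the Rpl24 row had 132 CPM. The order depended on the length used: with the union of all annotated exons, 1 of the top 5 (Rplp1) and 4 of the bottom 5 remained. Rps15a and Rps20 have long annotated main transcripts (5130 and 3706 bases, against a median of 774.5 over the 82 genes), and their levels before division by length were 71.2 and 122 CPM. The small 60S protein Rpl41, of few residues, had 177, 231 and 251 CPM at night and 190, 193 and 217 by day.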

How the data were processed

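Raw exon counts per gene were deposited by the authors as whole numbers, without normalization, for 12 stranded, rRNA-depleted total RNA libraries. The submitters' processing notes name STAR 2.4.0i and mm10. Which counter, strand setting and annotation were used is not given in the sources used here. Identifiers were matched to GENCODE M21 (22054 of 22618). In R 4.3.3 with edgeR 4.0.16, counts were filtered (filterByExpr, minimum count 10, total 15) and TMM-scaled, and all 17142 genes left were fitted by quasi-likelihood. Tests were a 24 h cosine and sine, any of 6 times, night minus day, and 12 h terms, each Benjamini-Hochberg adjusted over all genes at 0.05. Ranges and their 95% intervals come from least squares on log2 CPM (prior count 2, 9 residual degrees of freedom). CPM values are TMM-scaled. The tests were tested on simulated data.

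Members and gene lists were chosen with earlier results of these data known. Genes were named by rule: called members, the 5 smallest p per test, the 5 most and least abundant per length, the 5 largest and 3 smallest SDs, paralogs with their main copies, and 1 gene per role. Paralog ratios were compared after the values were seen. Genes outside it (Rpl3l, Rpl39l, Rps12l1, Rpsa, Rpl15, Rps6, Gnl3, Sesn2 and other called list genes) were chosen after their values were seen or for their sequence. Alternatives were DESeq2 1.42.0, limma-voom (limma 3.58.1), other scalings, no filter, a replicate block, each library left out, and other member sets. The 2 libraries of a time differed more than counting error allows (chi-square over its degrees of freedom 15.5 to 92.2), so each counts as 1 sample. Per gene, depth limits are given by the spread of replicates.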

Additional observations from a re-analysis of the deposited data

Results flagged for a closer look

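In 62 groups of 6 libraries (31 named genes by night and by day), 6 had 1 library far from the other 5 by Dixon's test. Chance alone gives about 1 in 20, and the groups are not independent. At night, ZT14 replicate 1 stood apart for Rpl9 (177 CPM, next 159) and Rpl4 (484, next 437). By day, ZT10 replicate 2 stood apart for Rpl35 (75.8, next 70.0), Rps24 (221, next 186), Rpl23a (123, next 110) and Rpl4 (450, next 415). These are the 2 libraries in which the main copies had their highest medians.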

How the results depend on the processing

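Counted without the 5 paralogs, the same fit gave 0 calls in place of 1 in the 24 h test, over 6 times and between night and day. That follows from leaving out Rpl7l1, the only called gene, and is no effect of processing. Among the 82 genes the count over 6 times was 0 to 1 with 1 library left out. It was 0 without ZT14 replicate 1, ZT14 replicate 2, ZT18 replicate 1, ZT18 replicate 2 or ZT22 replicate 1. It was also 0 with ZT02 replicate 2 and ZT06 replicate 1 both left out. The other counts stayed at 1 (24 h, night) and 0 (12 h) with 1 library left out. The median night minus day difference ranged from 0.011 to 0.099 and the median range from 1.096 to 1.175. With total counts only, these were 0.089 and 1.17, and 63.3% of night calls over all genes were higher at night, against 49.5%. Over all tested genes, replicate numbers showed little pairing: deviations correlated at -0.18 to 0.27 over 15 pairs of times, 2 above 0.1. By day the 77 main copies split by replicate, replicate 1 being higher in 7 (ZT02), 19 (ZT06) and 3 (ZT10). By night the split was mixed, with replicate 1 higher in 75 (ZT14), 70 (ZT18) and 10 (ZT22). With a replicate block the counts were 1, 1, 1 and 0 and the median difference 0.0612. Over all genes, the 24 h count of 2051 was 1201 to 2225 with 1 library left out, 3378 in DESeq2, and 568 with ZT02 replicate 1 and ZT06 replicate 2 both left out. The count over 6 times (826) was 174 to 897 and 2524, and the night count (1662) was 611 to 1818 with 1 library left out. The cause of these changes was not tested. Member sets without genes of over 50% shared windows and without the Rpl24 row were both added after seeing the data. They recount the main fit and keep Rpl7l1, the only called gene. Their counts of 1, 1, 1 and 0 were thus fixed in advance and do not test shared reads or that row.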
